A study of Mus musculus with 10 samples.

Results

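The 10 genes described here encode proteins of neutrophil granules and cytosol, and 1 neutrophil chemokine receptor, and were measured in tumour-associated macrophages, a sort that removed Ly6G-positive cells. They are S100a8, S100a9, Lcn2, Ngp, Camp, Ltf, Retnlg, Mpo, Elane and Cxcr2, taken by symbol, and each matched 1 of the 46957 loci in the tables. The macrophages came from 4T1 tumours, a mouse mammary carcinoma line, implanted into a mammary fat pad, with Balb/cJ hosts. One group of 5 samples came from mice given PBS vehicle. The other 5 samples came from mice given JHU083, a prodrug of the glutamine antagonist 6-diazo-5-oxo-L-norleucine, at 1 mg/kg from day 7 to day 13. Both groups were harvested on day 14, and live cells (7AAD-) that were CD45+, CD11b+, F4/80+, CD8-, Ly6C- and Ly6G- were sorted. The labels give no age or sex and do not say whether each sample is 1 mouse or a pool, so p-values measure the spread between these samples, which may be partly technical.

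Neutrophils build their granules in sequence as they mature in the bone marrow. Primary granules, made at the promyelocyte stage, hold myeloperoxidase (Mpo) and serine proteases such as neutrophil elastase (Elane). Secondary granules follow with lactoferrin (Ltf), cathelicidin (Camp), neutrophilic granule protein (Ngp) and lipocalin 2 (Lcn2), while S100A8 and S100A9 form the calcium-binding heterodimer calprotectin that fills the cytosol of mature cells, and CXCR2 is their receptor for CXC chemokines. Several of these genes are also known outside neutrophils: S100a8 and S100a9 in monocytes, and Lcn2 in activated macrophages and epithelial tumour cells.

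The promoters of 4 members whose values did not overlap between the groups, and of Retnlg, whose values did, are shown because C/EBP factors are known regulators of granule genes. Each sequence runs 5′ to 3′ on the gene's strand, from 250 bases before the RefSeq start to 50 after it (GRCm38.p6), and capitals mark matches to the C/EBP-type motif TTGCNNAA on either strand. The S100a8 window lies at chr3:90668821-90669120 on the plus strand, that of S100a9 at chr3:90695672-90695971 on the minus strand, that of Lcn2 at chr2:32387690-32387989 on the minus strand, that of Ngp at chr9:110419558-110419857 on the plus strand and that of Retnlg at chr16:48872358-48872657 on the plus strand.
S100a8: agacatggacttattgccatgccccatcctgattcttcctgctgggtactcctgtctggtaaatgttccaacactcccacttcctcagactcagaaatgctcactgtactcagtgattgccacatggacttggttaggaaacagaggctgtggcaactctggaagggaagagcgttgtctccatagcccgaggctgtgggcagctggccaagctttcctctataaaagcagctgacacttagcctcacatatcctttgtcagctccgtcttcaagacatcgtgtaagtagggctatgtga
S100a9: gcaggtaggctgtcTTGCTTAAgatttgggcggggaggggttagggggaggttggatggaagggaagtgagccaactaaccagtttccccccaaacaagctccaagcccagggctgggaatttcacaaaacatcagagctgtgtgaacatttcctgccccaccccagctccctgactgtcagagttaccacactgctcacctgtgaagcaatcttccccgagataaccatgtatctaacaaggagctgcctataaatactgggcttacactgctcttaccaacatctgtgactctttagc
Lcn2: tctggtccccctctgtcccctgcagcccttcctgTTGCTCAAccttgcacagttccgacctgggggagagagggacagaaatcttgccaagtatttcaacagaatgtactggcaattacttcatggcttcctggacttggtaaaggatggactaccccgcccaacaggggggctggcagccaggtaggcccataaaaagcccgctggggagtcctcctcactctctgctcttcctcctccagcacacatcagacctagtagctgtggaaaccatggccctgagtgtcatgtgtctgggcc
Ngp: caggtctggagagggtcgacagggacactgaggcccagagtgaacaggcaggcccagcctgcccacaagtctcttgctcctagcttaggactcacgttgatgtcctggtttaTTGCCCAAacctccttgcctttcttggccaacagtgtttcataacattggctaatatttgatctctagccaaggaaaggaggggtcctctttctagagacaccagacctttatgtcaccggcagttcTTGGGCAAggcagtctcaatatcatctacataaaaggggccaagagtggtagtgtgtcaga
Retnlg: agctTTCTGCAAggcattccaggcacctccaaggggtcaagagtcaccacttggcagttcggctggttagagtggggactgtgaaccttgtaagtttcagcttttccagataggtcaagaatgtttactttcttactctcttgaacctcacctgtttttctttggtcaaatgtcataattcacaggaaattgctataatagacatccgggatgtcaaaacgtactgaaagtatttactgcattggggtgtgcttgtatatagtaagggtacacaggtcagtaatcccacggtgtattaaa
The motif began 236 bases before the start in S100a9, 216 in Lcn2, 246 in Retnlg, and 138 and 11 in Ngp. S100a8 had no match in this window. Of all 10 members 5 held a match, the other one being Ltf (75 bases before the start), against 10.8% of 32851 promoters of this length. An NF-kappaB-type motif (GGGA, 3 free bases, then TCC, either strand) was in 0 of the 10 windows and in 4.59% of all promoters. The TATA motif TATAAA, on either strand, was in the windows of 2 members, S100a8 and S100a9, and in 13.6% of all promoters, and it did not overlap the C/EBP-type matches. A match is a description of the sequence only, and the Retnlg window holds one as the S100a9 and Lcn2 windows do.

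Between 11147864 and 14575926 fragments were counted per vehicle sample and between 13638370 and 15740683 per JHU083 sample. Of the sort's markers, Adgre1, which encodes F4/80, had 539 to 625 CPM (fragments scaled to a common library size by TMM) in vehicle and 893 to 986 CPM in JHU083. Ly6g had 0 to 2 fragments in any sample, Cd8a 0 to 6 and Ly6c2 0 to 13. Ly6c1 had 20 to 32 fragments in vehicle and 2 to 7 in JHU083, with no overlap (log2 fold change -2.54 ± 0.33, SE, edgeR adjusted p = 6.88e-05). No overlap in that direction held for 11.1% of tested loci. The genes of CD45 and CD11b were not examined. A locus of ribosomal RNA (Rn18s-rs5 with Gm42418) held 0 fragments in 3 vehicle libraries (replicates 2, 4 and 5) and 2 JHU083 libraries (replicates 1 and 3) and 2.87% to 5.59% in the others, and the members' values within each of these sets are given beside their results. Of the 10 members, S100a8, S100a9, Lcn2, Retnlg and Cxcr2 passed the filter on low counts, each with at least 11 fragments in every sample. Ngp, Camp, Ltf, Mpo and Elane, with at most 17 fragments in any sample, did not and are described by their fragments.

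Levels between genes were compared per length, on the authors' FPKM scale, which corrects for gene length and depth. For the low members Ltf and Mpo this scale did not follow the fragments from sample to sample: Ltf had 14 fragments and 1.79 FPKM in vehicle replicate 1, and 16 fragments and 0.764 FPKM in replicate 2. Their place in the order is therefore uncertain. In vehicle, S100a9 had the highest level of the members at 50.1 ± 6.07 FPKM (SD, n = 5), which placed it above 85.2% of the 12500 tested loci. Retnlg followed at 33.4 ± 18.9, S100a8 at 24.9 ± 5.69 and Lcn2 at 20.6 ± 5.86 FPKM; the ranges of these 3 neighbours over samples overlapped, and Retnlg also overlapped S100a9. The other 6 members lay under 1 FPKM: Ltf at 0.88, Ngp at 0.79, Cxcr2 at 0.66, Camp at 0.27, Mpo at 0.11 and Elane at 0.04 FPKM. In JHU083, Retnlg was first at 45.6 ± 42.4 FPKM (SD, n = 5), with 121 FPKM in replicate 4 and 18.7 to 33.8 FPKM in the others. S100a9, S100a8 and Lcn2 came to 11.1 ± 6.91, 9.37 ± 3.57 and 7.38 ± 1.91 FPKM, with ranges that overlapped one another. S100a9 then stood above 54.8% of the tested loci, S100a8 above 50.4% (73.4% in vehicle) and Lcn2 above 44.7% (69.5% in vehicle).

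The calprotectin genes and Lcn2 fell in JHU083, while Retnlg and Cxcr2 did not pass the test. Of the 5 members that passed the filter, 3 were thus lower and 0 higher at an edgeR adjusted p under 0.05, where 18.3% of the 12500 tested loci were lower (2293) and 18.4% higher (2296). With scaling to library size alone the loci split into 3141 lower and 1564 higher, and 3 members were lower and 0 higher there too. In all 3 the groups did not overlap, as was the case for 11.1% of tested loci in the lower direction. With the median of all tested loci at 0.01 on the log2 scale, the 3 differences ranged from -2.18 to -1.40. In sorted bulk RNA, fewer cells that carry a transcript and less of it per cell cannot be told apart.

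S100a8, on chromosome 3 (90669071 to 90670034, GRCm38.p6), had 8.90, 6.93, 5.21, 6.43 and 9.16 CPM in vehicle replicates 1 to 5 and 1.77, 1.51, 4.03, 3.52 and 3.08 CPM in the JHU083 replicates. Every JHU083 sample lay below every vehicle sample, and JHU083 replicates 1 and 2 were the lowest. Means were 7.32 ± 1.68 and 2.78 ± 1.10 CPM (SD, n = 5). This is 2.65-fold lower in JHU083, with a log2 difference of -1.40 ± 0.26 (SE, edgeR adjusted p = 0.000872). Within the samples at 0 for the ribosomal loci the log2 fold change was -1.38 (edgeR adjusted p = 0.0448), and within the others it was -1.40 (edgeR adjusted p = 0.0173).

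S100a9, its partner gene 22.6 kb away on the other strand (90692630 to 90695721), had 18.7, 16.9, 13.3, 15.6 and 16.4 CPM in vehicle and 2.18, 0.891, 6.71, 5.05 and 3.21 CPM in JHU083. The vehicle samples lay close together, and the JHU083 samples spread over a wider range on the log scale, again with replicates 1 and 2 lowest. Means were 16.2 ± 1.98 and 3.61 ± 2.31 CPM (SD, n = 5). This is 4.53-fold lower in JHU083, with a log2 difference of -2.18 ± 0.33 (SE, edgeR adjusted p = 0.000196). Within the 2 sets of libraries it was -1.88 (samples at 0, edgeR adjusted p = 0.0172) and -2.41 (the others, edgeR adjusted p = 0.00261).

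The calprotectin partners did not fall by the same factor. The number of S100a9 fragments per S100a8 fragment was 2.1, 2.44, 2.55, 2.42 and 1.79 in vehicle and 1.23, 0.591, 1.67, 1.43 and 1.04 in JHU083. The ratio was thus lower in every JHU083 sample than in any vehicle sample. The mean ratio was 2.26 ± 0.310 and 1.19 ± 0.409 (SD, n = 5), and the difference of -0.99 in log2 ratio had an exact two-sided permutation p of 0.0079, the smallest that 5 against 5 samples can give. On the authors' FPKM the difference was -0.99 as well, with the same exact permutation p of 0.0079. This ratio was examined after the values of both genes had been seen. Its difference was -0.62 within the samples at 0 for the ribosomal loci and -1.27 within the others, sets too small for a test at 0.05.

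**Figure D1:**
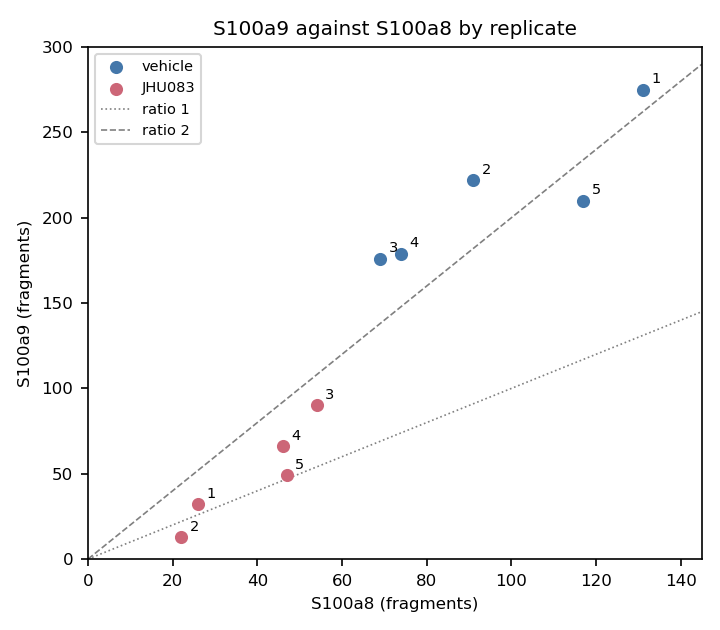
Fragments of S100a9 (vertical axis) against S100a8 (horizontal axis) in each sample, numbered by replicate, with vehicle in blue and JHU083 in red and lines at ratios of 1 and 2. All 5 JHU083 samples lie below the line at 2, with ratios of 0.591 to 1.67, and the vehicle samples at 1.79 to 2.55.

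Lcn2, on chromosome 2 (32384637 to 32387739), encodes a secreted protein that binds bacterial siderophores. It had 15.3, 21.3, 16.7, 16.7 and 8.77 CPM in vehicle and 5.59, 5.69, 3.88, 7.88 and 5.04 CPM in JHU083. The groups did not overlap, but vehicle replicate 5, at 8.77 CPM, came near JHU083 replicate 4. The log2 fold change was -1.49 ± 0.22 (SE, edgeR adjusted p = 0.000168), from 15.7 ± 4.5 to 5.62 ± 1.45 CPM (SD, n = 5). Within the samples at 0 for the ribosomal loci it was -1.71 (edgeR adjusted p = 0.0229), and within the others -1.38 (edgeR adjusted p = 0.00126).

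Ngp, a cystatin-related secondary granule protein on chromosome 9 (110419808 to 110423012), was at low level in vehicle and nearly without fragments in JHU083. Its fragments numbered 13, 12, 13, 7 and 12 in vehicle and 0, 1, 0, 0 and 0 in JHU083. All vehicle samples lay above all JHU083 samples, which held for 2.1% of the 4579 loci below the filter with at least 10 fragments in all (lower direction). Within the samples at 0 for the ribosomal loci the difference in mean CPM was -0.83 and within the others -0.95, sets too small for a test at 0.05. Over all samples it was -0.85 (exact two-sided permutation p = 0.0079, the smallest possible; 7.34% of those loci were lower at an exact p under 0.05). Summed over the groups, 57 fragments in vehicle against 1 in JHU083 gave a depth-scaled ratio of 65.4, with a 95% interval of 11.3 to 2627 (Clopper-Pearson, counting error only). With no filter, over 25544 loci, the edgeR adjusted p of Ngp was 6.36e-07.

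Camp, whose product is cut into the antimicrobial peptide CRAMP, and Ltf, the iron-binding lactoferrin, lie on the same chromosome as Ngp (109847377 to 109849456 and 111019292 to 111042766). Camp had 1, 2, 3, 3 and 1 fragments in vehicle and 0, 0, 0, 0 and 2 in JHU083. These values overlapped through JHU083 replicate 5. The difference was -0.13 CPM (exact two-sided permutation p = 0.0238, edgeR adjusted p without filter = 0.177), and the exact p rose to 0.0635 when any one of JHU083 replicates 1, 2, 3 or 4 was left out. The summed Camp fragments, 10 against 2, gave a depth-scaled ratio of 5.73 with a 95% interval of 1.22 to 53.8 (Clopper-Pearson, counting error only). Both JHU083 fragments came from replicate 5. Ltf had 14, 16, 4, 5 and 16 fragments in vehicle and 2, 17, 7, 7 and 4 in JHU083, with groups that overlapped widely. Its difference of -0.31 CPM was within the sample spread (exact two-sided permutation p = 0.302, edgeR adjusted p without filter = 0.39). The differences within the samples at 0 for the ribosomal loci and within the others were -0.165 and -0.109 CPM for Camp, and -0.643 and 0.025 CPM for Ltf.

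Retnlg, a resistin-like secreted protein found in neutrophil granules, is on chromosome 16 (48872608 to 48874498) and has close relatives in the resistin-like family, which leaves its own share of the fragments uncertain. It had 7.54, 20.7, 24.6, 10.5 and 7.59 CPM in vehicle and 7.84, 13.2, 10.1, 51.5 and 14.4 CPM in JHU083. The groups overlapped, and JHU083 replicate 4 was the highest of all 10 samples. The log2 fold change was 0.45 ± 0.48 (SE, edgeR adjusted p = 0.49). It changed sign without JHU083 replicate 4 (-0.31, edgeR adjusted p = 0.512) and within the samples at 0 for the ribosomal loci (-0.53, edgeR adjusted p = 0.425), and was 0.71 within the others (edgeR adjusted p = 0.39).

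Cxcr2, the chemokine receptor, is on chromosome 1 (74153994 to 74161246). It had 1.77, 1.83, 2.19, 2.61 and 1.80 CPM in vehicle and 0.75, 2.06, 4.40, 4.97 and 3.34 CPM in JHU083. JHU083 replicate 1 had the lowest value of all samples and replicates 3, 4 and 5 the highest. The log2 fold change of 0.60 ± 0.38 (SE) did not pass the test (edgeR adjusted p = 0.222), and without JHU083 replicate 1 it was 0.85 and passed (edgeR adjusted p = 0.0253). Within the samples at 0 for the ribosomal loci it was 0.30 (edgeR adjusted p = 0.805), and within the others 0.79 (edgeR adjusted p = 0.176).

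The primary granule members, Elane and Mpo, were close to the lowest level that can be seen. Elane had 0, 0, 2, 0 and 0 fragments in vehicle and 6, 4, 3, 1 and 7 in JHU083. The groups overlapped only through vehicle replicate 3 and JHU083 replicate 4. The difference was 0.26 CPM (exact two-sided permutation p = 0.0159, edgeR adjusted p without filter = 0.0231), where 5.09% of the loci below the filter were higher at an exact p under 0.05 and 1.4% had no overlap in that direction. Its depth-scaled level in vehicle was 0.109 of that in JHU083, with a 95% interval of 0.0124 to 0.447 (Clopper-Pearson, counting error only, from 2 and 21 fragments). Both vehicle fragments came from replicate 3. Mpo had 3, 1, 0, 1 and 2 fragments in vehicle and 7, 0, 0, 6 and 12 in JHU083, and its difference of 0.24 CPM was within the sample spread (exact two-sided permutation p = 0.167, edgeR adjusted p without filter = 0.185). The 3 fragments that a count of 0 allows correspond to 0.20 to 0.26 CPM in these libraries. Most Elane and Mpo values lie near or below that level. Within the samples at 0 for the ribosomal loci and within the others, the differences were 0.319 and 0.201 CPM for Elane, and 0.133 and 0.325 CPM for Mpo, sets too small for a test at 0.05.

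**Figure D2:**
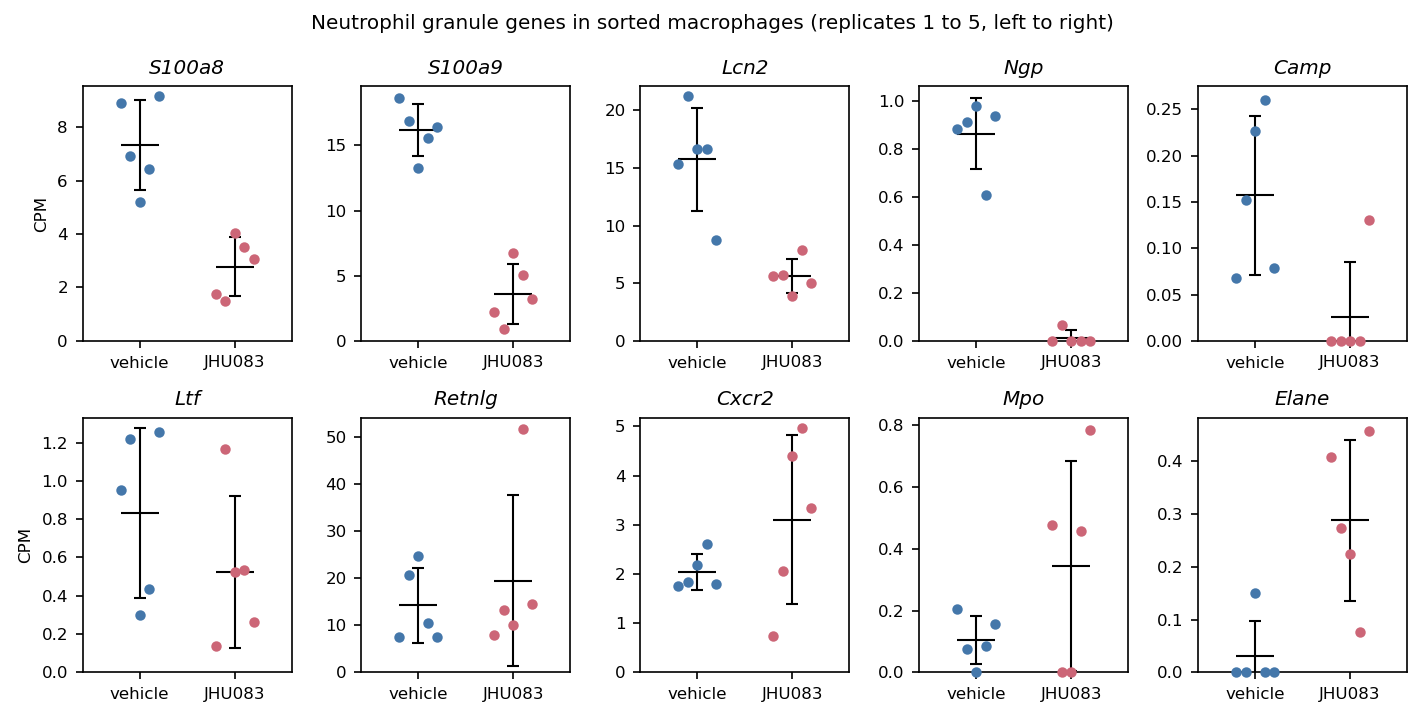
CPM (vertical axes, each from 0) of the 10 members in the 5 vehicle samples (blue) and the 5 JHU083 samples (red), with the mean and SD in black and replicates 1 to 5 from left to right. S100a8, S100a9, Lcn2 and Ngp show no overlap between the groups, the other 6 members overlap, and Retnlg reaches 51.5 CPM in JHU083 replicate 4.

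Elane lies 3.14 kb from Prtn3, which encodes proteinase 3 of the same granules, on chromosome 10 (79886312 to 79888216). Unlike Elane, Prtn3 had 25 to 92 fragments in every sample. Its mean was 3.53 ± 1.15 CPM with vehicle and 4.53 ± 1.85 CPM with JHU083 (SD, n = 5), and the log2 difference was 0.35 ± 0.30 (SE, edgeR adjusted p = 0.372). Of the 3 further primary granule genes listed (Prss57, Ctsg and Ms4a3) none passed the filter, and Ctsg, the cathepsin G gene, had at most 4 fragments. Prss57 had 56 fragments in vehicle and 29 in JHU083 in all, with groups that overlapped and a difference of -0.43 CPM (exact two-sided permutation p = 0.0159, edgeR adjusted p without filter = 0.123; 7.34% of comparable loci were lower at an exact p under 0.05). Of this list 1 gene was tested and 0 were called, where 36.7% of all tested loci were called in either direction.

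Of 6 markers that define neutrophils, 3 passed the filter, with 1 higher and 0 lower, where 36.7% of all tested loci were called in either direction. The 5 other than Csf3r had lower means in JHU083, but none of them passed the edgeR test with TMM scaling, and Ly6g (5 fragments against 1) and Itgb2l (2 against 0) were too low to compare. Ly6g and Itgb2l had at most 2 and 1 fragments. Csf3r, the receptor for granulocyte colony-stimulating factor, which macrophages also express, rose from 58.4 ± 4.34 to 84.5 ± 10.9 CPM (SD, n = 5) with no overlap, a log2 difference of 0.53 ± 0.09 (SE, edgeR adjusted p = 0.000663). Mmp8, the neutrophil collagenase gene, had 6.15 ± 0.645 and 4.64 ± 1.09 CPM (log2 fold change -0.41 ± 0.17, SE, edgeR adjusted p = 0.0732), and Cd177, a surface protein of neutrophils, 1.05 ± 0.414 and 0.545 ± 0.231 CPM (log2 fold change -0.97 ± 0.39, SE, edgeR adjusted p = 0.0643). With scaling to library size alone both passed, at -0.50 for Mmp8 (edgeR adjusted p = 0.0312) and -1.05 for Cd177 (edgeR adjusted p = 0.0465). Stfa2l1 had 7 to 13 fragments in vehicle and 0 to 9 in JHU083 (exact two-sided permutation p = 0.0238, edgeR adjusted p without filter = 0.134; 7.34% of comparable loci were lower at an exact p under 0.05). The summed level of these 6 markers, nearly all of it Csf3r, was 61.6 to 73.6 CPM in vehicle and 74.8 to 104 CPM in JHU083. Without Csf3r, a sum taken after the values were seen, it was 7.13 to 9.22 CPM in vehicle and 4.32 to 7.23 CPM in JHU083.

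Of 12 other secondary and tertiary granule genes, 10 passed the filter, with 1 higher, 2 lower and 7 not past the threshold. Their median log2 fold change was -0.27, and 3 of 10 called is near the 36.7% of all tested loci. These 12 include Cd177 and Mmp8, already counted among the defining markers. Mmp9, the gelatinase of tertiary granules and also a macrophage product, fell from 429 ± 171 to 136 ± 72.0 CPM (SD, n = 5; log2 fold change -1.65 ± 0.35, SE, edgeR adjusted p = 0.00237). Mmp9 did not pass within the samples at 0 for the ribosomal loci (-1.49, edgeR adjusted p = 0.0731). Chil1 fell by 0.82 on the log2 scale (edgeR adjusted p = 0.0431), a call that was lost in 14 of 24 alternatives. Chil3, which encodes the lectin Ym1 and is made by macrophages as well as neutrophils, rose from 4.94 ± 2.55 to 20.8 ± 12.9 CPM (SD, n = 5; log2 fold change 2.08 ± 0.47, SE, edgeR adjusted p = 0.00374); its groups overlapped through JHU083 replicate 1, and within the samples at 0 for the ribosomal loci it did not pass (1.40, edgeR adjusted p = 0.209).

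Of 18 other genes of mature neutrophils, 10 passed the filter, with 1 higher (Csf3r, above), 4 lower and 5 not past the threshold. Their median log2 fold change was -0.44 (4 of 10 lower, beside 18.3% of all tested loci). These 18 include Ly6g, Csf3r, Itgb2l and Stfa2l1, already counted among the defining markers. Padi4, the histone-citrullinating enzyme of neutrophil extracellular traps, fell from 23.3 ± 9.62 to 5.83 ± 2.52 CPM (SD, n = 5; log2 fold change -2.00 ± 0.32, SE, edgeR adjusted p = 0.000338). Il1r2, the decoy receptor for interleukin 1, fell from 93.4 ± 10.3 to 26.7 ± 8.60 CPM (SD, n = 5; log2 fold change -1.81 ± 0.19, SE, edgeR adjusted p = 1.49e-05). Padi4 and Il1r2 both had groups that did not overlap. Padi4 was lowest in JHU083 replicates 3 and 5 (3.13 and 3.01 CPM), where the epithelial gene Krt8 was lowest too (22.7 and 25.6 CPM). Likeness to Krt8 was seen after the values, and which cells carried the Padi4 RNA was not tested. Fpr2, whose locus also lists Fpr3, fell by 1.03 and Hdc, which encodes histidine decarboxylase, by 0.67 on the log2 scale (edgeR adjusted p = 0.0125 and 0.00627). Fpr2 did not pass within the samples at 0 for the ribosomal loci (-0.54, edgeR adjusted p = 0.301), nor Hdc within the others (-0.51, edgeR adjusted p = 0.154). Among the 8 genes below the filter, groups did not overlap for Stfa2 (28 fragments against 1) and Cxcr1 (11 against 0), both lower in JHU083 and named after their values were seen; 2.1% of comparable loci below the filter had no overlap in that direction.

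**Figure D3:**
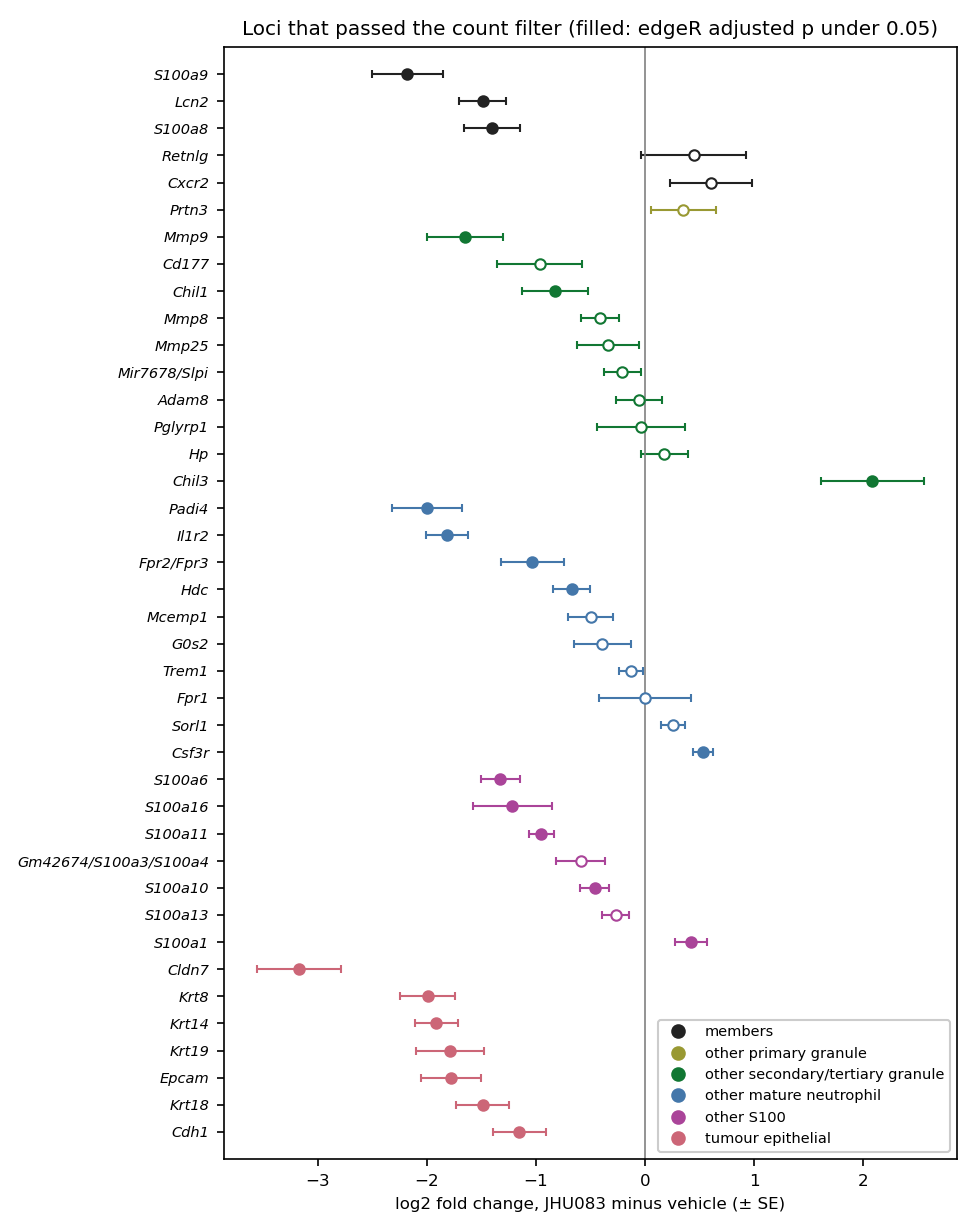
Log2 fold change, JHU083 minus vehicle (horizontal axis, bars show the SE), of the loci that passed the filter in the member list and in 5 other lists; filled circles mark an edgeR adjusted p under 0.05. S100a9, Lcn2 and S100a8 lie between -2.18 and -1.40, Retnlg and Cxcr2 lie above 0 with open circles, and the 7 epithelial genes are all below 0.

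Other S100 genes, small calcium-binding proteins of which many share chromosome 3 with S100a8 and S100a9, were compared next. Of 13 loci for 14 genes, 7 passed the filter, with 4 lower, 1 higher and 2 not past the threshold, and a median log2 fold change of -0.59; 18.3% of all tested loci were lower and 18.4% higher. S100a6 fell from 83.8 ± 22.0 to 33.4 ± 6.37 CPM (SD, n = 5; log2 fold change -1.33 ± 0.18, SE, edgeR adjusted p = 9.17e-05). S100a11 fell by 0.95 (edgeR adjusted p = 3.33e-05), S100a16 by 1.22 (edgeR adjusted p = 0.0167) and S100a10 by 0.46 (edgeR adjusted p = 0.0138) on the log2 scale. S100a16 and S100a10 did not pass within either set of libraries alone. S100a1 was the gene that rose (0.42 ± 0.15, SE, edgeR adjusted p = 0.036).

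Of 8 transcription factors listed with granule genes, 7 passed the filter, with 1 higher and 1 lower, where 36.7% of all tested loci were called. Cebpa, which acts in myeloid progenitors and in macrophages, rose from 398 ± 17.2 to 823 ± 85.7 CPM (SD, n = 5; log2 fold change 1.05 ± 0.08, SE, edgeR adjusted p = 1.45e-06). Cebpe, the factor most tied to secondary granules, had 1.90 ± 0.552 and 2.04 ± 1.06 CPM (log2 fold change 0.09 ± 0.34, SE, edgeR adjusted p = 0.863). Klf5 fell by 2.06 on the log2 scale (edgeR adjusted p = 0.00281), and did not pass within the samples at 0 for the ribosomal loci (-1.49, edgeR adjusted p = 0.176). Over the vehicle samples Klf5 ranked in the same order as the epithelial gene Epcam, but over the JHU083 samples it did not. Which cells carried the Klf5 RNA was not tested.

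Receptors and ligands tied to the member proteins were listed as well: 12 loci, of which 9 passed the filter, with 3 higher (18.4% of all tested loci were) and 3 lower (18.3%). The 3 lower loci include Fpr2, already counted above. Csf3, the growth factor that drives neutrophil production, fell from 6.10 ± 3.17 to 1.07 ± 0.623 CPM (SD, n = 5; log2 fold change -2.52 ± 0.43, SE, edgeR adjusted p = 0.000561). Cxcl1, a CXCR2 ligand, fell by 0.78 (edgeR adjusted p = 0.00485), and did not pass within the samples at 0 for the ribosomal loci (-0.53, edgeR adjusted p = 0.226). For Cxcl2, another CXCR2 ligand, the difference of -0.28 did not pass (edgeR adjusted p = 0.186), nor did that of 0.21 for Cxcl3 (edgeR adjusted p = 0.528). Ppbp, whose product is cut into a further CXCR2 ligand, rose from 2.51 ± 0.494 to 4.10 ± 1.23 CPM (SD, n = 5; log2 fold change 0.70 ± 0.24, SE, edgeR adjusted p = 0.0314). Slc22a17, which encodes a lipocalin 2 receptor, rose from 1.39 ± 0.442 to 3.38 ± 0.516 CPM (SD, n = 5; log2 fold change 1.27 ± 0.24, SE, edgeR adjusted p = 0.00126). Lrp1, a receptor that takes up lactoferrin, rose by 0.47 ± 0.13 on the log2 scale (SE, edgeR adjusted p = 0.0124). Tlr4, a receptor for calprotectin, had a log2 fold change of 0.33 ± 0.13 (SE, edgeR adjusted p = 0.0557).

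Markers of other cells were counted as well, although the CD45+ and F4/80+ gates would remove epithelial cells and the Ly6C- gate most monocytes. Of 8 tumour epithelial genes 7 passed the filter and all 7 were lower (18.3% of all tested loci were), with a median log2 fold change of -1.79. Their summed level was 267 to 562 CPM in vehicle and 94.9 to 196 CPM in JHU083, and 0 of the 8 genes were at 0 in all samples. Krt8 fell from 144 ± 49.7 to 36.2 ± 11.2 CPM (SD, n = 5; log2 fold change -1.99 ± 0.25, SE, edgeR adjusted p = 5.47e-05), Epcam by 1.78 (edgeR adjusted p = 0.000261) and Cldn7 by 3.17 (edgeR adjusted p = 3.74e-05) on the log2 scale. The part of epithelial RNA in the Lcn2 difference was not tested.

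**Figure D4:**
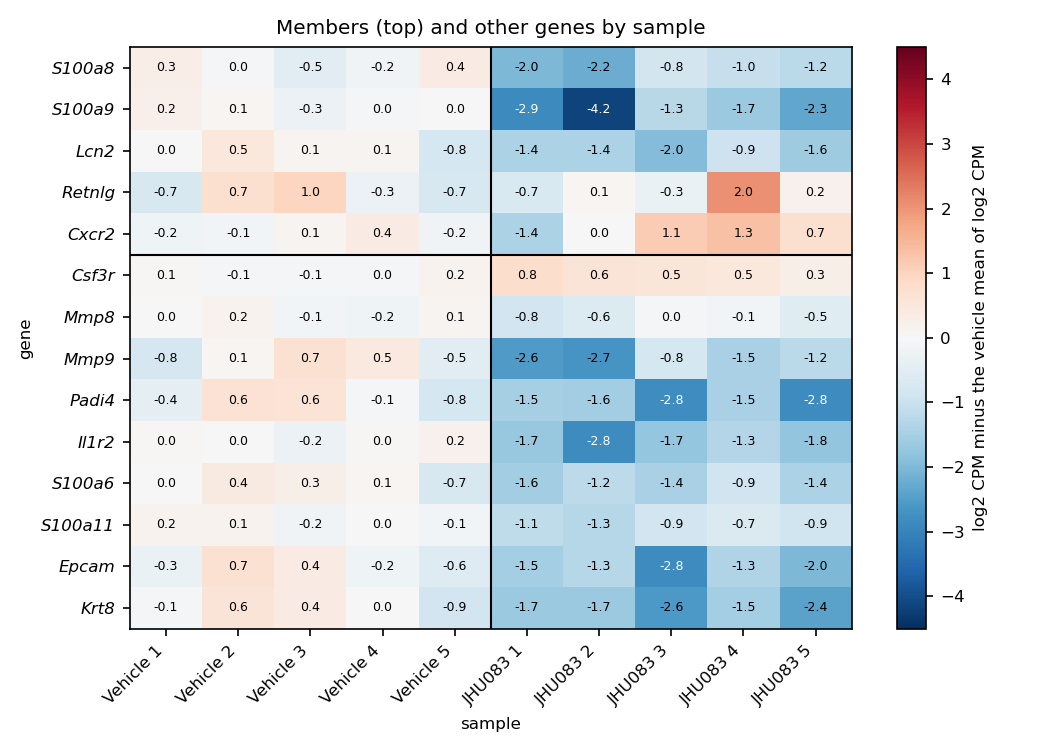
Log2 CPM minus the mean of the vehicle samples, for 5 members (top) and 9 other genes (rows) in each sample (columns). S100a9 drops furthest in JHU083 replicate 2 (-4.2), Csf3r is above 0 in all JHU083 samples, and Epcam and Krt8 are below 0 in all of them.

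The remaining lists were read by their sums. Monocyte genes had 3 of 6 tested loci lower (18.3% of all tested loci were) and 0 higher, with a median log2 fold change of -0.54. Their sums were 704 to 882 CPM in vehicle and 569 to 859 CPM in JHU083. Most of each sum was Ccr2 (means of 332 and 366 CPM) and F13a1 (394 and 321 CPM). The 3 lower loci were Ly6c1 (given above), Vcan (log2 fold change -1.06, edgeR adjusted p = 0.0129) and F13a1 (-0.30, edgeR adjusted p = 0.0267). For the lists that follow, 18.4% of all tested loci were higher. Eosinophil genes had 1 of 3 tested loci higher (3.68 to 10.6 and 6.64 to 17.4 CPM), and mast cell and basophil genes 1 of 2 higher (4.95 to 7.02 and 5.76 to 12.1 CPM). The highest eosinophil, mast cell and dendritic cell sums were all in JHU083 replicate 4, as were the highest Retnlg, Cxcr2 and Chil3 values. The highest lymphocyte sum was in JHU083 replicate 5 and the highest macrophage sum in JHU083 replicate 3. Lymphocyte genes had 1 of 2 tested loci higher (Cd4, which macrophages can also express), with list sums of 27.4 to 29.7 and 37.0 to 53.8 CPM. Without Cd4 the sums were 11.6 to 15.5 and 8.57 to 13.2 CPM. Most of that was 1 locus that lists Gm44511, Klrb1b and Klrb1c (10.3 to 13.1 and 6.92 to 11.4 CPM). Dendritic cell genes had 1 of 5 tested loci higher (sums of at most 11.05 and 26.3 CPM). Macrophage genes had 7 of 12 higher (33164 to 42646 and 51885 to 71110 CPM, of which Apoe alone was 54.5% to 68.9%). In these 3 lists 0 were lower. The part of these cells in the members' values was not tested.

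Genes whose level followed a member most closely from sample to sample were found from log2 CPM after subtracting group means, over the 10 samples and 10125 or 10126 candidate loci, as a description. S100a8 was followed by Ftsj1, Stard3nl and Sergef (Pearson r = 0.99, 0.97 and 0.96), and S100a9 by Glrx, Slc39a11 and 1810022K09Rik (0.99, 0.97 and 0.97). Lcn2 was followed by Tubgcp3, Gm38312 and Tm4sf1 (0.97, 0.95 and 0.95). Gm38312 and Tm4sf1 also fell with treatment, by 1.23 and 1.63 on the log2 scale (edgeR adjusted p = 0.0004 and 0.000876). Of the other followers, 2 passed the test: Slc39a11 rose by 0.40 (edgeR adjusted p = 0.00122) and Plet1 fell by 1.52 on the log2 scale (edgeR adjusted p = 0.0017), while S100a9 fell and Retnlg did not pass. Retnlg was followed by Plet1, Cd24a and the locus of Serpinb10 and Serpinb2 (0.96, 0.96 and 0.96), and Cxcr2 by F10, Adamdec1 and F7 (0.97, 0.97 and 0.94). The 5 members had no shared gene among these, and how often such values arise by chance was not tested.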

How the data were processed

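RNA from sorted tumour-associated macrophages was poly(A)-selected and made into paired-end Illumina libraries with a NEBNext Ultra kit, per the labels' protocols; whether counting used strand is not given in the sources used here. TopHat2 2.1.1 and GRCm38 are named in the submitters' processing notes; the counting program and annotation are not given in the sources used here. The authors deposited expected counts, headed as raw counts, whose values are mostly whole multiples of one step per sample. Division by the step gave whole numbers (within 0.02) for 95.5% to 98.0% of values above 0, and for at least 99.9% of those under 100 fragments, and these were rounded and used as fragments. The authors also deposited a normalized column, read from its values as FPKM and used for levels only. One row without a gene name (at most 0.0021% of fragments) was left out.

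Loci were filtered with filterByExpr and compared by edgeR 4.0.16 (TMM, quasi-likelihood F-test, R 4.3.3, no covariate), with Benjamini-Hochberg adjustment over all 12500 loci at 0.05. The SE is the absolute log2 fold change divided by the square root of F. Members below the filter were tested by exact two-sided permutation of mean CPM over 252 splits, without adjustment over the members; instead the share of comparable loci past the same p is given. The tests were checked on simulated data. Depth limits the low members: 3 fragments are 0.20 to 0.26 CPM. Positions and promoters are RefSeq's (GRCm38.p6), matched by symbol for all 10 members.

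Alternative fits used DESeq2 1.42.0, voom from limma 3.58.1 with and without sample weights, other scalings and filters, the deposited values rounded, the ribosomal loci left out or as a covariate, each set of libraries alone, each replicate left out and a replicate block. The rule for named genes took the members, fixed defining markers, up to 4 genes of each list past the threshold with the largest change, and the 3 loci with the highest Pearson r to a member. Of the genes it took, those of the macrophage, monocyte, eosinophil, mast cell, lymphocyte and dendritic cell lists and 3 keratins are given only in counts and sums. Exceptions are Adgre1, Apoe, Ly6c1, Vcan, F13a1 and Cd4, which were not run under the alternatives. Cd8a, Ly6c2, Ccr2, the Klrb1c locus, Ppbp, Lrp1, Cxcl3, S100a1, Cxcl2, Tlr4, Stfa2, Cxcr1, Prss57, Ms4a3 and Cebpe were named beyond that rule and not run under the alternatives. The members and lists were chosen with earlier results of these data known.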

Additional observations from a re-analysis of the deposited data

Results flagged for a closer look

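A sample was set apart when its gap to the nearest of the others exceeded 0.71 of its group's range of 5 values. Of 68 groups of values examined, 4 had such a sample, and chance gives about 1 in 20, or 3.4. On the log2 CPM scale with a prior count of 2, Ngp was lowest in vehicle replicate 4, at -0.41 against 0.04 to 0.17 in the other 4. In JHU083, Ngp was highest in replicate 2, at -2.22 against -2.77 in the others, where it had 1 fragment against 0. Camp was highest in JHU083 replicate 5, at -1.85 against -2.77, with 2 fragments against 0. Elane was highest in vehicle replicate 3, at -1.75 against -2.77, with 2 fragments against 0. The last 3 rest on 1 or 2 fragments.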

How the results depend on the processing

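S100a8, S100a9 and Lcn2 kept their direction and their call in all 24 alternatives, and their log2 fold changes ranged from -1.57 to -1.25, from -2.52 to -1.88 and from -1.71 to -1.36. The number of tested members that were lower was 3 in every alternative; the number higher was 0 except without JHU083 replicate 1, where Cxcr2 passed and it was 1 (range 0 to 1). With one sample left out, loci higher numbered 1821 to 2899 and loci lower 1900 to 2930. In the samples at 0 for the ribosomal loci alone 532 loci were higher and 586 lower, and in the others 1274 were higher and 1545 lower, with fewer samples in each fit. Scaling to library size alone gave 1564 higher and 3141 lower loci and moved the median log2 fold change from 0.01 to -0.07. Direction changed for Retnlg (-0.53 in the samples at 0 and -0.31 without JHU083 replicate 4, with a range of -0.31 to 0.74 when one sample was left out), for Ltf in the samples above 0 (0.025 CPM) and for Prtn3 there (-0.072); the cause was not tested. Of 550 comparisons of the other named genes, 519 kept the call, 24 lost it, 6 gained it and 1 changed direction; the 6 gains were Cd177 and Mmp8, each lower in 3 (library size alone, without JHU083 replicate 3, and without vehicle replicate 4 for Cd177 or with weighted voom for Mmp8). Chil1 lost its call in 14 of 24. The labels number both groups 1 to 5, but same-numbered samples did not deviate together: correlations of their deviations ran from -0.57 to 0.09 over the 5 pairs. With the replicate block, S100a8, S100a9 and Lcn2 were -1.44, -2.30 and -1.47 (edgeR adjusted p = 0.00532, 0.00164 and 0.00065), and 1612 loci were higher and 1757 lower. Under the block an exact test cannot go below 0.0625, so Ngp (-0.85 CPM) and Elane (0.26 CPM) had that p, and Camp (-0.13 CPM) had 0.125. The difference in log2 ratio of S100a9 over S100a8 fragments kept its call in 11 of 14 alternatives and lost it in 3. With 1 sample left out that difference ranged from -1.13 to -0.76. Alternatives for normalized values were not run, since FPKM was not tested across loci.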
